A study of Mus musculus with 10 samples.

Results

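The genes described here are the 7 globin genes Hba-x, Hba-a1, Hba-a2, Hbb-y, Hbb-bh1, Hbb-bt and Hbb-bs, out of 32285 genes in the single-cell RNA matrices of the developing mouse incisor. Globins are the protein chains of hemoglobin, the oxygen carrier of red blood cells, and each hemoglobin pairs alpha-type with beta-type chains. The members were taken by their gene symbols, and all 7 were present at each of the 3 stages. They were read in 2 sets of cells. The first set held the cells in which the 7 globins supplied at least 20% of the unique molecular identifiers (UMIs, each standing for 1 captured RNA molecule), here called globin-rich. The second held all other cells that passed the filter, where globin RNA was read as background, although a few of these cells carried erythroid markers.

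In the mouse embryo the first red cells arise in the yolk sac and enter the blood while still nucleated. These primitive red cells use the embryonic beta-type genes Hbb-y and Hbb-bh1 and the embryonic alpha-type gene Hba-x. Definitive red cells, which come mainly from the fetal liver and lose their nuclei, use the adult genes Hba-a1, Hba-a2, Hbb-bt and Hbb-bs, and the change from one set to the other is known as globin switching. Primitive cells are also known to change, while they circulate, from Hbb-bh1 towards Hbb-y and from Hba-x towards the adult alpha genes.

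The samples came from wild type NMRI mice at E11.5 (whole mandibles; E stands for the embryonic day) and at both E14.5 and E16.5 (lower incisor buds), with no treatment and no mutant allele. The labels list 4, 4 and 2 samples, which were deposited as 1 matrix per stage, and the cells of a matrix could not be assigned to samples. Each stage was therefore 1 sample in which several mandibles were pooled, stage cannot be told apart from sample or from the tissue dissected, and no test between stages was made. Intervals in brackets are exact 95% intervals (binomial for shares, Poisson for levels) and cover counting error only. UMIs were not divided by gene length, because 3′ libraries count molecules. In such pooled tissue, fewer red cells and less globin RNA per red cell give the same fall in background globin and cannot be told apart from the level alone.

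Cells passed with 700 genes or more and no more than 20% mitochondrial UMIs, which left 6573 of 8708 barcodes at E11.5, 6091 of 8192 at E14.5, then 4511 of 5719 at E16.5. Of these, 103 cells were globin-rich at E11.5 (1.57% [1.28 to 1.90]), 113 at E14.5 (1.86% [1.53 to 2.23]) and 52 at E16.5 (1.15% [0.862 to 1.51]). Stages shared 13, 17 and 16 barcodes by sequence, and none of the shared barcodes was globin-rich and passing at both stages. The passing cells just outside it reached 19.7%, 19.9% and 18.6%, those just inside began at 20.3%, 20.4% and 20.2%, and 15, 27 and 11 cells lay between 10% and 20%, beside 21, 21 and 13 between 20% and 30%, so the limit did not fall in a gap.

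The filter on genes removed most globin-rich barcodes after E11.5. Among all globin-rich barcodes, 107 of 210 failed at E11.5 (51.0%), 1000 of 1113 at E14.5 (89.8%) and 511 of 563 at E16.5 (90.8%), and each of these had fewer than 700 genes. The failing globin-rich barcodes had a median of 518 genes at E11.5, 184 at E14.5, then 207 at E16.5. At E14.5 and E16.5 their UMIs were almost wholly globin, with 87.8% and 92.0% of all UMIs, against 38.3% at E11.5. The results are therefore given for the passing cells first and then for the globin-rich barcodes with under 700 genes, a set that was added after the data had been seen.

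**Figure D1:**
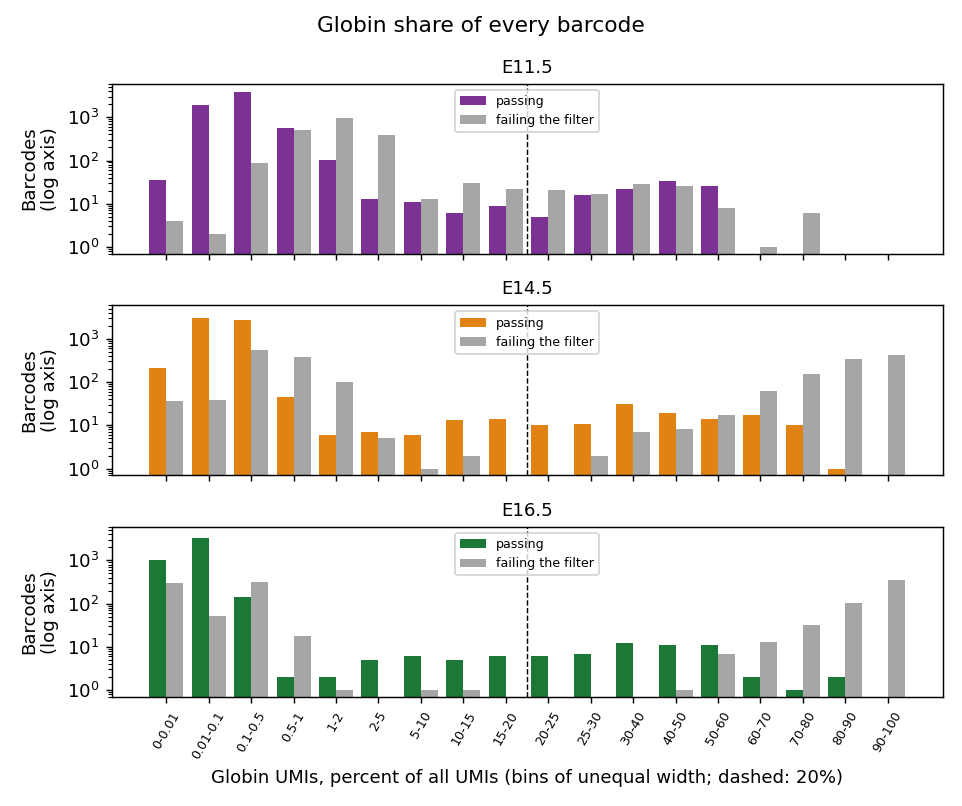
Number of barcodes (log axis) by the globin share of their UMIs at each stage, for barcodes that passed the filter (coloured) and that failed it (grey); bins are of unequal width and the dashed line marks 20%. At E14.5 and E16.5 most barcodes right of the line were failing ones at 80% globin or more, while at E11.5 both kinds lay mostly between 20% and 60%.

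The label of red cell was checked against 8 erythroid markers that are not globins (among them Alas2, Klf1, Slc4a1, Hemgn, Gata1, Rhag and Epor). At E11.5 all 8 were detected in the globin-rich passing cells, every one of the 103 cells had at least 2 of them, and their summed level was 5567 CPM (UMIs scaled to a total of 1000000, here of the UMIs outside the globins), against 20.2 in the other cells. At E14.5 the summed level was 962 with Klf1 and Epor at 0, and at E16.5 it was 777 with Klf1, Gata1 and Epor at 0. The passing globin-rich cells of the later stages also carried markers of other cell types. Cells with at least 2 markers of mesenchyme, epithelium, endothelium, immune cells, muscle or glia made up 10 of 103 at E11.5 (9.71%), 101 of 113 at E14.5 (89.4%) and 47 of 52 at E16.5 (90.4%). Mesenchyme markers led at E14.5 (83 cells, 73.5%) and both mesenchyme (28 cells, 53.8%) and epithelium (22 cells, 42.3%) at E16.5, with all 6 markers of each list detected at both stages. Cells were also sorted by the list with most markers, at least 2 and without a tie. The erythroid list led in 100, 8 and 2 cells. Mesenchyme led in 74 at E14.5 and 25 at E16.5, and epithelium in 9 and 15. Mesenchyme markers summed to 2222 and 2007 CPM at these stages, beside 2184 and 1904 in the other cells. Erythroid markers summed to 5.33 and 7.01 in the other cells. The part of RNA of other cell types in the values below was not tested.

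In the globin-rich barcodes with under 700 genes the picture of the markers was different in part. The erythroid markers summed to 5938 CPM outside the globins at E11.5, 7128 at E14.5, then 13363 at E16.5. These levels rest on 561, 2634 and 2455 UMIs, and the UMIs outside the globins were few at the later stages. At least 2 of the markers were found in 84.1%, 34.4% and 41.1% of the barcodes. At E14.5 the sum was 2095 in barcodes with mostly embryonic beta-type UMIs and 11571 in the rest. Barcodes with at least 2 markers of another cell type were 1 of 107 (0.935%), 22 of 1000 (2.20%) and 15 of 511 (2.94%). This count is limited by the few genes detected in these barcodes. By level outside the globins, epithelium markers summed to 0 CPM at E11.5, 308.5 at E14.5, then 832.8 at E16.5. In the passing globin-rich cells they summed to 0, 269.8 and 865.4. Mesenchyme markers summed to 317.5, 592.7 and 185.1, beside 283.4, 2222 and 2007 in the passing globin-rich cells. Immune markers summed to 0 at E11.5, 21.6 at E14.5, then 10.9 at E16.5.

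The 7 genes lie in 2 clusters. By the GENCODE vM21 annotation of mm10, the alpha-type genes lie on the plus strand of chromosome 11 in the order Hba-x (32276400 to 32278116), Hba-a1 (32283511 to 32284465) and Hba-a2 (32296489 to 32297298). The beta-type genes lie on the minus strand of chromosome 7, where transcription meets them in the order Hbb-y (103851749 to 103853216), Hbb-bh1 (103841637 to 103843164), Hbb-bs (103826534 to 103828096) and Hbb-bt (103812524 to 103813996). In both clusters the embryonic genes therefore come first in the direction of transcription, and each of the 7 has 3 exons.

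The promoter stretches of an embryonic and an adult gene of each cluster, and of the second adult beta gene, are shown because these genes replace each other in the data. They are the 120 bases before the RefSeq start of each gene (GRCm38.p6; the GENCODE gene records begin upstream of that start in all 5, by 3 bases for Hba-a2, 9 for Hbb-y, 73 for Hbb-bt, 168 for Hbb-bs and 200 for Hba-x). They are written 5′ to 3′ on the gene's strand, with capitals for every match on either strand to one of 4 short motifs. The motif CCAAT is the core of the CCAAT box. The motif CACCC is the core of the box that Klf1 is known to bind. The motif TATAA marks the TATA box, and GATAA is the core of a GATA factor site. Where 2 matches touch, their capitals run together. The stretches are Hba-x at chr11:32276480-32276599 (+), Hba-a2 at chr11:32296372-32296491 (+), Hbb-y at chr7:103853208-103853327 (-), Hbb-bt at chr7:103813924-103814043 (-) and Hbb-bs at chr7:103827929-103828048 (-). Hbb-bh1 is named only.
Hba-x: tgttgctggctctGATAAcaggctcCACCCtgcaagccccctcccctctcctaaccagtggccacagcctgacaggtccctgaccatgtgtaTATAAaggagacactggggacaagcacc
Hba-a2: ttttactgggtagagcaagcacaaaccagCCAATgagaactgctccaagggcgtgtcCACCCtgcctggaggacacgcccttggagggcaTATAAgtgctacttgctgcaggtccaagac
Hbb-y: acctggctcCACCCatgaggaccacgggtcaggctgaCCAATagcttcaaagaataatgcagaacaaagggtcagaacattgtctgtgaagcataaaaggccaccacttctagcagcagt
Hbb-bt: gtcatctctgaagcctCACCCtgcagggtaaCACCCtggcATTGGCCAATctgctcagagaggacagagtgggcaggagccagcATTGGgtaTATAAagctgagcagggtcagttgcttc
Hbb-bs: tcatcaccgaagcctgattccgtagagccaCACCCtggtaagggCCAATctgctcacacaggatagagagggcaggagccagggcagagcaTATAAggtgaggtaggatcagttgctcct

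A CACCC match stood in all 5 stretches, and 31.7% of the 32851 promoters held one in the same window. A CCAAT match stood in 4 of the 5 and was absent from Hba-x; 21.3% of all promoters held one. Hbb-bt had 2 CACCC matches and 3 CCAAT matches. TATAA stood in all but Hbb-y, against 11.8% of all promoters, and GATAA stood in Hba-x alone, against 10.5%. A match is a description of the letters and not a bound site.

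Pairs of adult genes are near-identical, which limits how far they can be told apart. The coding sequences of Hba-a1 and Hba-a2 differed at 1 of 429 aligned positions, and the 74 bases annotated after the stop codon of Hba-a1 were identical to a run in Hba-a2. Hbb-bt and Hbb-bs differed at 1 of 444 coding positions but shared 70.1% of aligned positions after the stop codon. Cell Ranger counts a read only where it maps to a single gene, so reads that match both alpha genes are lost, and the division between Hba-a1 and Hba-a2, and with it the alpha share of all globin, is uncertain. The lost reads are all adult, so the Hba-x shares of alpha-type UMIs below may be too high. Reads from the coding sequence that Hbb-bt and Hbb-bs share can be lost too, so the embryonic beta-type shares may also be too high. The size of this loss was not tested, and the intervals leave it out. The embryonic genes differ more, with Hbb-y and Hbb-bh1 alike at 76.9% and Hba-x and Hba-a1 at 66.4% of aligned coding positions. The beta-globin haplotype of these mice is not given in the sources used here, so the division between Hbb-bt and Hbb-bs refers to the reference genes.

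The globins of the globin-rich cells changed from embryonic at E11.5 to adult at E16.5, with both kinds present at E14.5. The embryonic genes Hbb-y and Hbb-bh1 supplied 94.8% [94.6 to 94.9] of beta-type UMIs at E11.5, 23.8% [23.6 to 24.0] at E14.5, then 0.0119% [0.00704 to 0.0188] at E16.5. Over the passing cells, the share ran from 83.6% to 100% at E11.5 and from 0 to 0.484% at E16.5, so these stages did not overlap. At E14.5 it ran from 0 to 93.2%. In the globin-rich barcodes with under 700 genes the share ran from 0.670% to 100% at E11.5 and from 0 to 99.2% at E16.5. There these stages overlapped. Without the passing cells that carried at least 2 markers of another cell type, a choice made after the data were seen, the shares were 94.7% at E11.5, 49.2% at E14.5, then 0 at E16.5. The E14.5 value then rested on 12 cells and the E16.5 value on 5.

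The embryonic alpha gene Hba-x fell with them. Hba-x supplied 60.9% [60.7 to 61.2] of alpha-type UMIs at E11.5, with cells from 49.2% to 74.0%, and 5.89% [5.77 to 6.03] at E14.5 (13.9% without the cells with markers of another type). At E16.5 no Hba-x UMI was found among 88090 alpha-type UMIs of 52 passing cells [0 to 0.00419%]. In the barcodes with under 700 genes Hba-x supplied 54.2%, 4.47% and 0.567% of alpha-type UMIs at the 3 stages. In the passing cells alpha-type genes together supplied 42.8%, 40.2% and 36.8% of globin UMIs at the 3 stages. The order of the first 2 stages turned without the cells with markers of another type (42.7%, 45.04% and 39.1%), in the barcodes with under 700 genes (38.8%, 40.2% and 38.2%) and, by a small margin, with at least 200 genes and no mitochondrial limit (42.3%, 42.4% and 38.1%).

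Among the beta-type genes, Hbb-y, the main embryonic gene, was the largest globin at E11.5, with 45.9% [45.7 to 46.1] of globin UMIs. Its share was 14.1% [14.02 to 14.26] at E14.5, and 0 of 239598 globin UMIs at E16.5. Hbb-bh1, the other embryonic gene and the one that primitive cells use first, was at 8.26% [8.17 to 8.36] at E11.5, at 0.0747% [0.0655 to 0.0848] at E14.5, then at 0.00751% at E16.5. The E16.5 value was 18 UMIs that all lay in 1 cell. In the E16.5 barcodes with under 700 genes, 12865 of 1305990 beta-type UMIs were embryonic, of which 106 were of Hbb-bh1.

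The adult beta genes took their place. Hbb-bs went from 0.295% [0.276 to 0.315] of globin UMIs at E11.5, through 31.5% [31.3 to 31.6] at E14.5, to 46.1% [45.9 to 46.3] at E16.5. Hbb-bt was at 2.70% [2.65 to 2.76], 14.1% [14.02 to 14.26] and 17.1% [16.9 to 17.2]. At E11.5 Hbb-bt was the larger of the pair and at both later stages Hbb-bs was, so that Hbb-bt made up 90.2% of adult beta-type UMIs at E11.5, 31.0% at E14.5, then 27.0% at E16.5.

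The adult alpha genes were already well represented at E11.5. Hba-a1 was at 11.2% [11.1 to 11.3] of globin UMIs at E11.5, 21.6% [21.4 to 21.7] at E14.5, then 19.5% [19.3 to 19.7] at E16.5. Hba-a2 was at 5.55% [5.47 to 5.63], 16.2% [16.1 to 16.4] and 17.3% [17.1 to 17.4]. All 103 globin-rich E11.5 cells had UMIs of both genes. The order of the 7 genes in the passing cells at E11.5 was thus Hbb-y, Hba-x, Hba-a1, Hbb-bh1, Hba-a2, Hbb-bt and Hbb-bs. At E16.5 it was Hbb-bs, Hba-a1, Hba-a2 and Hbb-bt, followed by Hbb-bh1 with 18 UMIs and by Hbb-y and Hba-x at 0. At E14.5 Hbb-y and Hbb-bt, at 45066 and 45071 UMIs, did not differ beyond counting error. In the E16.5 barcodes with under 700 genes Hbb-bh1 was instead the lowest of the 7, with 106 UMIs, and Hba-x had 4574.

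**Figure D2:**
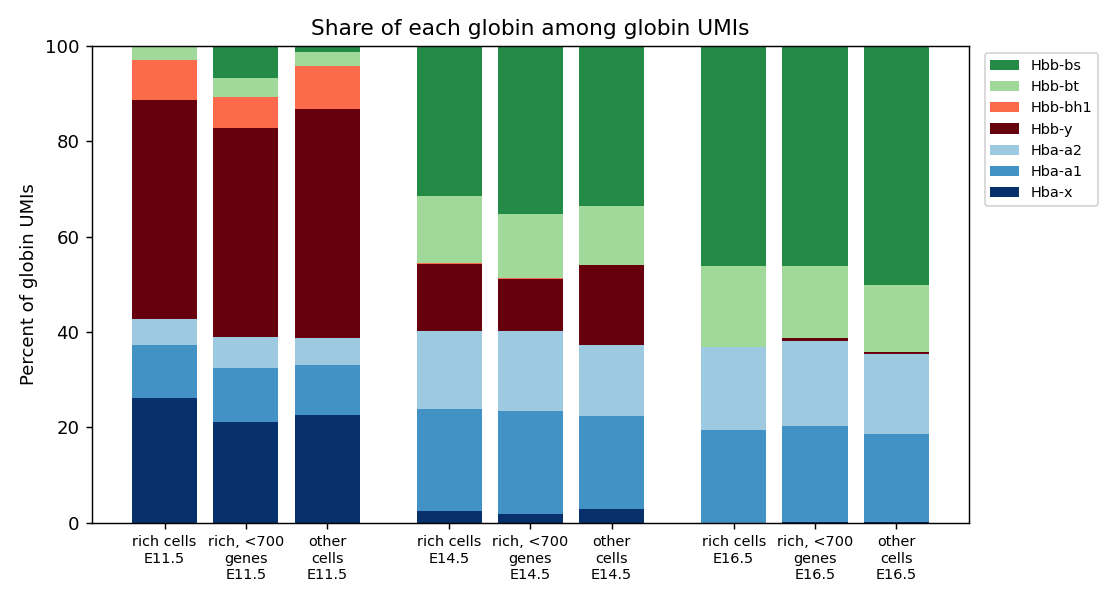
Share of each of the 7 globin genes among globin UMIs (percent, stacked) at each stage, in passing globin-rich cells, in globin-rich barcodes with under 700 genes and in the other passing cells. Hbb-y and Hba-x fill most of the E11.5 bars and are absent from the E16.5 bar of passing globin-rich cells, where Hbb-bs takes 46.1%.

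At E14.5 most cells fell into 2 groups by their beta-type UMIs. Of the 113 globin-rich passing cells, 78 had under 5% embryonic beta-type UMIs, 34 had between 74.0% and 93.2%, and 1 lay between, at 38.9%. The barcodes with under 700 genes fell in the same way, with 706 of 1000 under 5%, 285 at 70% or more and 9 between. Barcodes with 50% or more of their beta-type UMIs from the embryonic genes are called embryonic-type below and the rest adult-type. The 34 embryonic-type passing cells also held adult genes, since embryonic genes made up 85.2% of their beta-type UMIs, whereas in the 79 adult-type cells the embryonic genes made up 0.564%. Embryonic-type barcodes were 197 of 210 globin-rich barcodes at E11.5 (93.8% [89.6 to 96.7]), 323 of 1113 at E14.5 (29.0% [26.4 to 31.8]) and 17 of 563 at E16.5 (3.02% [1.77 to 4.79]).

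A few barcodes were of the type opposite to that of most barcodes of their stage. The 17 embryonic-type barcodes of E16.5 all had under 700 genes, had 81.4% to 99.2% embryonic beta-type UMIs, and held Hba-x at 32.9% [32.1 to 33.7] of alpha-type UMIs. At E11.5, 13 barcodes with a median of 208 genes and 716 UMIs had 0.670% to 4.86% embryonic beta-type UMIs. Hbb-bs made up 55.1% [53.9 to 56.3] of their globin UMIs, against 0.295% in the passing E11.5 cells. A high adult beta share was given by the way they were set apart. Their alpha-type share was 33.2%, beside 37.0% in the adult-type E14.5 barcodes with under 700 genes. Hba-a1 made up 55.5% and 53.7% of adult alpha-type UMIs. At least 2 erythroid markers were found in only 2 of the 13, and in 2 of the 17 at E16.5. In the 13 barcodes of E11.5 Hba-x made up 1.19% [0.787 to 1.73] of alpha-type UMIs. No passing cell of E11.5 was of the adult type and no passing cell of E16.5 of the embryonic type.

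**Figure D3:**
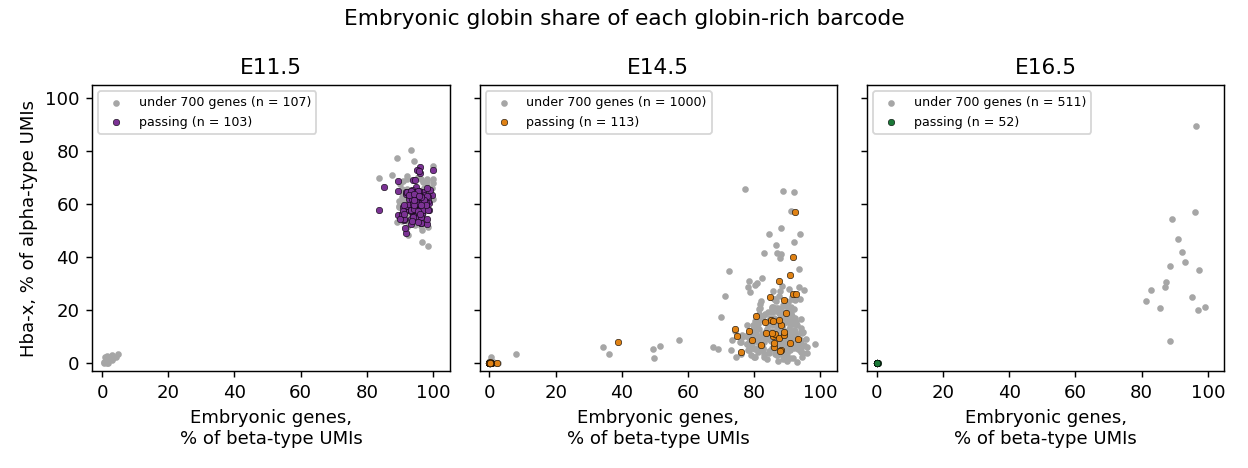
Each point is a globin-rich barcode, placed by the embryonic share of its beta-type UMIs (x axis, percent) and by the Hba-x share of its alpha-type UMIs (y axis, percent), for passing cells (coloured) and barcodes with under 700 genes (grey). The E11.5 cells form 1 group at the upper right, with 13 barcodes of under 700 genes at the lower left, E14.5 splits into a group near 0 and a group at 70% or more on the x axis whose Hba-x share runs from near 0 to 65.6%, and the E16.5 passing cells lie near 0 on both axes, with 17 barcodes of under 700 genes at the right.

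The embryonic-type cells of E14.5 were not the same as those of E11.5. Hbb-y held a close share of globin in both, at 44.4% [44.1 to 44.7] in the 34 passing cells of E14.5 and 45.9% at E11.5. Hbb-bh1 was at 0.409% [0.352 to 0.473] of embryonic beta-type UMIs at E14.5 and at 15.3% [15.1 to 15.4] at E11.5, and the highest single E14.5 cell, at 4.99%, lay below the lowest E11.5 cell, at 5.76%. Hba-x was at 15.6% [15.3 to 15.96] of alpha-type UMIs at E14.5, with cells from 4.19% to 56.9%, against 60.9% at E11.5. The 289 embryonic-type barcodes with under 700 genes gave 0.450% for Hbb-bh1 and 14.2% for Hba-x, and the 94 of E11.5 gave 12.8% and 60.1%. In single barcodes of this set Hbb-bh1 reached 8.45% at E14.5 and went down to 4.47% at E11.5, so there the stages overlapped.

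Over pooled UMIs, the division of the adult genes also differed in the embryonic-type cells. Hba-a1 made up 63.4% of adult alpha-type UMIs in the embryonic-type cells of E14.5 and 66.8% at E11.5, but 53.9% in the adult-type cells of E14.5 and 53.0% at E16.5. Hbb-bt made up 44.3% of adult beta-type UMIs in the embryonic-type cells of E14.5, 30.3% in the adult-type cells and 27.0% at E16.5. Alpha-type genes supplied 47.7% [47.4 to 48.0] of globin UMIs in the embryonic-type cells and 36.7% [36.5 to 36.9] in the adult-type cells of the same matrix. For the barcodes with under 700 genes the alpha share was 49.7% and 37.0%. The division of the near-identical pairs remains uncertain, as said above.

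Adult-type cells differed little between E14.5 and E16.5. Hbb-bs was at 43.9% and 46.1% of globin UMIs, Hbb-bt at 19.0% and 17.1%, Hba-a1 at 19.8% and 19.5% and Hba-a2 at 16.9% and 17.3%. Hbb-y, the embryonic gene, still had 724 UMIs in the 79 adult-type cells of E14.5 (0.331% of globin), of which 642 came from the cell at 38.9%, and none in the 52 cells of E16.5. Among barcodes with under 700 genes Hbb-y was at 0.0845% in 711 adult-type barcodes of E14.5 and at 0.000575% (12 UMIs) in 494 of E16.5.

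Other genes of the clusters were nearly silent. Hbq1b, an alpha-cluster gene of unknown function, had 43 UMIs in the globin-rich cells of E11.5 and 3 and 2 at the later stages. Its E11.5 level was 63.2 CPM [45.8 to 85.2], here of all UMIs, against 0.214 in the other cells. Hbq1a and Hbb-bh2 had between 0 and 4 UMIs in the globin-rich cells of each stage.

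The other passing cells, which by their markers were mostly mesenchyme and, at the later stages, epithelium, also held globin RNA. Its level was 1833 [1821 to 1846] CPM in 6470 cells at E11.5, 2074 [2057 to 2092] in 5978 at E14.5, then 1051 [1041 to 1061] in 4459 at E16.5. At least 1 globin UMI was found in 99.8%, 96.8% and 81.3% of these cells, at median depths of 5667, 3438.5 and 6219 UMIs and with medians of 9, 4 and 2 globin UMIs. With each cell thinned to 2000 UMIs and 738, 880 and 213 shallower cells left out, the shares were 87.7%, 81.2% and 42.6%.

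The kind of globin in the other cells followed the stage. Embryonic genes made up 93.1% [92.9 to 93.3] of beta-type UMIs at E11.5, 26.7% [26.3 to 27.2] at E14.5, then 0.612% [0.522 to 0.713] at E16.5. The share was 94.8%, 23.8% and 0.0119% in the passing globin-rich cells and 92.7%, 19.0% and 0.884% over all globin-rich barcodes. In the other cells Hba-x made up 58.5%, 7.61% and 0.266% of alpha-type UMIs. Hbb-y was the most widely found globin at E11.5, with a UMI in 97.8% of the other cells, and Hbb-bs at E16.5, in 61.0%. Hbb-bh1 went from 55.9% of the other cells at E11.5, through 0.552% at E14.5, to 0.0449% at E16.5.

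A few cells carried much of this RNA. At E11.5, 144 of the other cells had 1% to 20% globin and held 27698 of the 85866 globin UMIs. At E14.5, 46 such cells held 33351 of 56118, and at E16.5, 24 held 31700 of 41445. In the cells under 1% globin the level was 1256, 852 and 249.5 CPM, which falls at each step, whereas over all the other cells E14.5 was the highest. That order also turned under 3 other settings. E11.5 was above E14.5 with at least 200 genes and no mitochondrial limit (2352 and 2171 CPM), with a globin limit of 10% (1596 and 1127) and with cells thinned to 2000 UMIs (2078 and 1861).

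In the cells under 1% globin the share of embryonic genes lay close together in most gates of a stage. Cells were sorted by the list of 6 markers (8 for erythroid) of which they had most, at least 2 and without a tie. At E14.5 embryonic genes made up 36.2% [35.3 to 37.1] of beta-type UMIs in 4487 mesenchyme-gated cells, 33.6% [31.5 to 35.8] in 728 epithelium-gated cells, 41.2% [35.9 to 46.6] in 146 endothelium-gated cells and 34.2% [29.4 to 39.4] in 126 immune-gated cells. At E11.5 the share lay between 92.0% in muscle-gated and 95.4% in immune-gated cells. At E16.5 it was 1.61% [1.20 to 2.11] in mesenchyme-gated and 1.57% [1.12 to 2.13] in epithelium-gated cells, and 19.9% [15.6 to 24.8] in 220 cells of no gate.

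Over all the other cells, with those at 1% to 20% included, the same share at E14.5 was 12.7% in epithelium-gated, 31.8% in mesenchyme-gated and 59.8% in endothelium-gated cells, so the gates lay close together without the cells of high globin and far apart with them. The embryonic share under 1% globin also lay above that of the globin-rich cells at E14.5 (36.1% over all gates, against 23.8%) and at E16.5 (2.52%, against 0.0119%). The mean globin content under 1% was 3.74 UMIs per mesenchyme-gated and 4.31 per epithelium-gated cell at E14.5, and 1.94 and 2.47 at E16.5. In CPM the order of these gates was the reverse, at 952 and 538 at E14.5 and at 259 and 219.9 at E16.5, the epithelium-gated cells being the deeper ones (median 4998 against 3271 UMIs at E14.5).

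**Figure D4:**
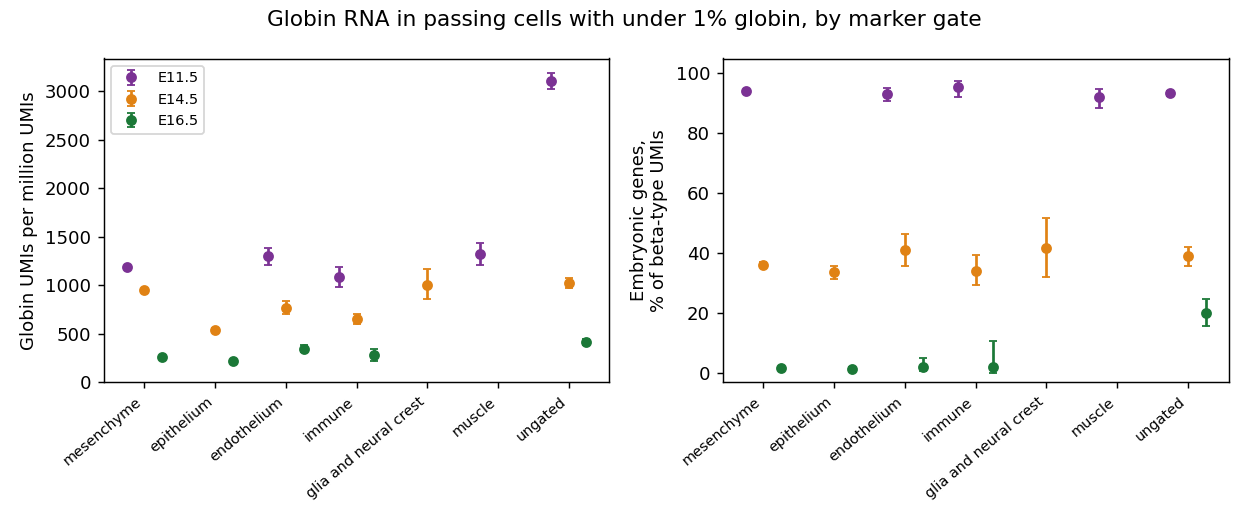
Passing cells with under 1% globin UMIs, by the marker list that gates them, for gates of at least 20 cells. Left, globin CPM with exact Poisson intervals; right, embryonic share of beta-type UMIs (percent) with exact binomial intervals. The right panel shows the 3 stages as separate levels with gates of 1 stage close together, apart from the ungated cells of E16.5 at 19.9%.

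Genes outside the globins were compared between sets of globin-rich cells as the log2 ratio of CPM outside the globins, with 10 added to both sides, over genes with at least 50 counts. With 1 matrix per stage there is no test, and a gene is counted as higher or lower from a log2 ratio of 1, which is 2-fold. Of 62 erythroid genes in 7 lists, 35 could be compared between the passing cells of E14.5 and E11.5, of which 4 were higher and 28 lower. Over all 1970 genes, 17.5% were higher and 10.4% lower; the median log2 ratio was -2.78 for the lists and 0.10 for all genes. The markers of other cell types named above, in 89.4% of the E14.5 cells and 9.71% of the E11.5 cells, move with this comparison. Without those cells 2 of 29 genes were higher and 19 lower, against 7.47% higher and 22.2% lower of 817 genes. Among the barcodes with under 700 genes, few had at least 2 such markers, and the level of these markers is given above. In this set 10 of 28 genes were higher and 12 lower, against 18.4% higher and 13.9% lower of 1029 genes.

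The heme synthesis genes were lower at E14.5 in all 7 genes compared, led by Cpox (724.7 to 15.3 CPM) and the mitochondrial transporter gene Abcb10 (438.5 to 22.9), and Alas2, the first enzyme of the pathway in red cells, went from 1118 to 524. In the embryonic-type barcodes with under 700 genes 3 of 5 heme synthesis genes were lower and Alas2 was at 1005 and 924, and in the adult-type barcodes of E14.5 Alas2 was at 6598. Of the red cell membrane genes 10 of 11 were lower in the passing cells, led by Rhd (487 to 15.3), and of the erythroid transcription factors 3 of 3. In the embryonic-type barcodes with under 700 genes 4 of 7 membrane genes were lower and 1 higher. The 1 transcription factor compared there was higher (log2 ratio 1.46). Over all 548 genes of that comparison 20.8% were higher and 20.3% lower. Klf1 and Gata1 were both detected in the globin-rich E14.5 barcodes with under 700 genes. In the passing cells Klf1, the activator of adult beta-globin, had 80 counts at E11.5 and 0 at E14.5. This was at least 28.0-fold lower against the limit of 3 counts. Gata1, the master factor of red cells, had 24 counts and 1. In the list of globin switching regulators, Bcl11a, a repressor of embryonic globin genes, went from 8 to 44 counts (21.4 to 112 CPM), beside 139.5 CPM in the other E14.5 cells. Hmga2 went from 25 to 100 counts, and the part of RNA of other cell types in this rise was not tested. Bnip3l, which clears mitochondria from maturing red cells, was higher too, going from 222 to 519 CPM.

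From the passing cells of E14.5 to those of E16.5, 15 genes of the lists could be compared, with 0 higher and 3 lower, against 2.81% higher and 1.59% lower of 2137 genes. Slc4a1, the anion exchanger of the red cell membrane, went from 158 CPM at E14.5 to 33.2 at E16.5, Fth1, the ferritin heavy chain, from 5977 to 2198, and Hmga2 from 254.5 to 118.9. With the E14.5 cells of under 50% embryonic beta-type UMIs alone, 0 of 15 genes were higher and 1 was lower, against 3.07% higher and 1.15% lower of 1827 genes. The lower gene was in the red cell membrane list. None of the 3 genes compared of the iron uptake list, which holds Fth1, was then lower. Nor was either of the 2 globin switching regulators compared, a list that holds Hmga2. In the barcodes with under 700 genes 5 of 21 were higher and 3 lower, against 6.38% higher and 8.13% lower of 1082 genes. Without the cells with markers of another type only 4 could be compared, with 0 higher and 2 lower, against 2.94% higher and 5.15% lower of 136 genes.

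The embryonic-type and adult-type cells of E14.5 come from 1 matrix and could be set beside each other within it. In the passing cells, 1 gene of the 14 compared was higher in the embryonic type and 6 were lower, against 1.11% higher and 2.4% lower of 1085 genes. The higher gene was Fth1, at 11499 against 3398 CPM (log2 ratio 1.76). The largest ratios of all genes were those of Pdzk1ip1 (4.07), Nudt4 (3.69), Sqstm1, an autophagy receptor (1.95), Gclm, a subunit of the first enzyme of glutathione synthesis (1.81), and Fth1. The smallest of the genes reported here were those of Slc25a37, the mitochondrial iron importer (-2.51), 1500009L16Rik (-1.98), the ubiquitin ligase gene Mkrn1 (-1.91), Tfdp2 (-1.78) and Itm2a (-1.58). At least 2 markers of another cell type were present in 27 of the 34 embryonic-type and 74 of the 79 adult-type cells. Their levels were not equal. Epithelium markers summed to 120 CPM in the embryonic type and 340 in the adult type, and mesenchyme markers to 1911 and 2367. Endothelium markers went the other way, at 384 and 205. The part of RNA of other cell types in these ratios was not tested.

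The same comparison was made in barcodes with under 700 genes, 289 of the embryonic and 711 of the adult type. Of these, 8 and 14 barcodes had at least 2 markers of another cell type, a count that their few genes limit. By level, epithelium markers summed to 167 and 433 CPM outside the globins and mesenchyme markers to 323 and 830.5. Their part in the ratios was not tested. Of 20 genes compared, 4 were higher in the embryonic type and 10 lower, against 8.67% higher and 21.6% lower of 761 genes; the median log2 ratio was -1.13 for the lists and -0.41 for all genes. The heme genes Alas2 (6598 in the adult type, 924 in the embryonic type, CPM) and Fech, the last enzyme of the pathway (2828 and 525), were lower in the embryonic type. Slc25a37 was at 4433 and 265.5, with a log2 ratio of -4.01. Bpgm, which makes the metabolite that lowers the oxygen affinity of adult hemoglobin, was at 2991 and 768.

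The genes higher in the embryonic type were Tal1, a transcription factor of blood formation (30.6 in the adult type and 594.5 in the embryonic type), Kel, a blood group protease (152.9 and 681), Fth1 (20528 and 54573) and Epb42, a protein of the membrane skeleton (86.6 and 213.6). The genes for ferritin light chain, Ftl1, and for the peroxidase Prdx2 did not reach 2-fold, with log2 ratios of -0.17 and -0.57. Over all genes the largest ratios were those of Pdzk1ip1 (1 count in the adult type and 343 in the embryonic type), Fam174b and C730034F03Rik (both at 0 in the adult type), Hmox1, the enzyme that breaks down heme (7 and 201 counts), and Gm26885. The smallest of the genes reported here were Isg15, Ssx2ip, Tfdp2, Nusap1, a spindle protein (444 and 17), and Syt14 (86 and 2). Pdzk1ip1 was thus the largest in both sets of E14.5 barcodes.

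**Figure D5:**
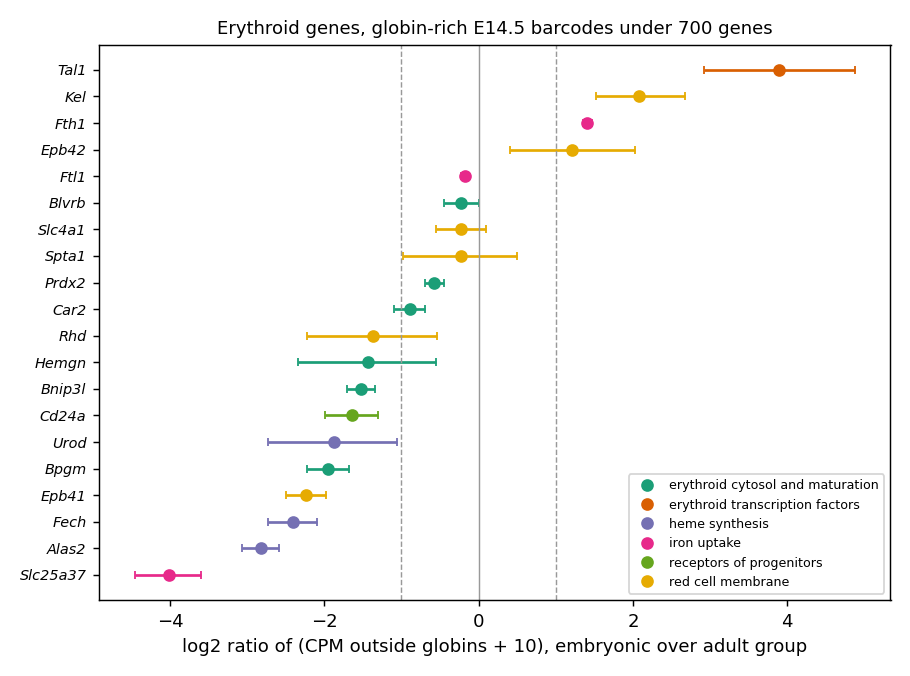
log2 ratio of CPM outside the globins (10 added), embryonic-type over adult-type, for the 20 erythroid genes compared among globin-rich E14.5 barcodes with under 700 genes, with intervals that cover counting error only. Colours mark the gene lists and dashed lines the 2-fold limits. Slc25a37 lies at -4.01 and Tal1 at 3.90.

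The embryonic-type barcodes themselves were also unlike between E11.5 and E14.5 outside the globins. In the barcodes with under 700 genes, 94 at E11.5 and 289 at E14.5, 8 of 24 genes were higher at E14.5 and 10 lower, against 20.8% higher and 20.3% lower of 548 genes, with medians of -0.32 for the lists and -0.21 for all genes. Lower were Hemgn (1447 to 69.3 CPM), a nuclear protein of red cell precursors, Rhd (1061 to 80.8), Tfrc, the transferrin receptor (1160 to 98.1), and Cpox (718 to 75.03). Higher were both ferritin chains, Ftl1 (3304 to 35174) and Fth1 (9524 to 54573), and Bnip3l (154.7 to 1876). Alas2 was at 1005 and 924, with a log2 ratio of -0.12. The 5 smallest ratios over all genes belonged to mitochondrial transcripts, from -4.54 for mt-Co2 to -5.51 for mt-Nd3, and the median mitochondrial share of these barcodes was 6.41% at E11.5 and 0.0566% at E14.5.

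Adult-type barcodes with under 700 genes, 711 at E14.5 and 494 at E16.5, were close to each other. Of 18 genes compared, 1 was higher at E16.5 and none lower, against 2.4% higher and 4.42% lower of 791 genes. The higher gene was Isg20 (11 and 77 counts). Alas2 was at 6598 and 8748 CPM. Klf1 had 2 and 3 counts and Gata1 2 and 0, so their levels could not be compared at this depth. Bcl11a had 6 and 5.

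Across the globin-rich cells of a stage, the genes whose levels ran most like a globin are given as a description, by Pearson's r of ln(1 + counts per 10000 UMIs). At E14.5 the 3 genes most like Hbb-y over 113 cells were Nudt4 (r = 0.72), Pdzk1ip1 (0.69) and Fth1 (0.65), and the same 3 led for Hba-x (0.71, 0.70 and 0.62). For Hbb-bs they were, of the genes reported here, Slc25a37 (0.55), Mkrn1 (0.40) and Alas2 (0.38). The 113 cells are the embryonic-type and adult-type cells compared above, so these E14.5 values are not separate from that comparison. At E11.5 Fth1 led for Hbb-y (0.70), Hba-x (0.51) and Hba-a1 (0.66) over 103 cells, where the level of these globins also ran with the depth of the cell (r = 0.55, 0.65 and 0.63 with log depth). At E16.5 Bpgm led for Hbb-bs (0.43) and Hba-a1 (0.44) over 52 cells, out of 6352 genes. There both globins fell with the depth of the cell (r = -0.35 with log depth for each). The cells of a stage share 1 matrix and a globin takes a large share of each cell's UMIs. Weak values among sparse counts are no finding, such as those of Hbb-bs at E11.5 (at most 0.33) and those of E16.5 (at most 0.44).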

How the data were processed

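Single-cell RNA libraries (10x Genomics Chromium 3′ v3) were measured at 3 stages. Per the methods and the submitters' processing notes, the authors ran Cell Ranger 4.0.0 with the mm10 reference that 10x Genomics supplies, and deposited UMI counts per gene and barcode, as 1 matrix per stage with the samples pooled. Median depth of the globin-rich passing cells was 4946, 6046 and 10638 UMIs in order of stage, which sets the counting intervals.

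Counts were summed over cells in python 3.11.15 with numpy 2.4.6, pandas 2.3.3 and scipy 1.17.1. Cells needed at least 700 genes and at most 20% mitochondrial UMIs, as in the study. Doublets were not called; cells with markers of another type were counted instead. Comparisons over genes used CPM outside the globins + 10. The calculation was run on simulated counts with 200 genes changed 4-fold and the rest unchanged. Those counts held no spread between cells and no markers of other cell types, so they checked the calculation only. The members, gene lists and tests were chosen with earlier results of these data known, and the barcodes with under 700 genes and the cells under 1% globin were set apart after the data were seen. Named were the globins, genes of the lists past 2-fold (at most 4 per list), Gata1, Klf1, Alas2 and Bcl11a, the 3 genes most like each of 4 globins, and the 5 largest and smallest ratios within E14.5, a rule extended to the barcodes with under 700 genes. Ahsp was not analysed here. A few other genes that the lists and rankings held are not reported here and were left out of both. Promoters came from RefSeq, positions and transcripts from GENCODE vM21. Alternatives were other filters, globin limits, weights, thinning and added counts.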

Additional observations from a re-analysis of the deposited data

How the results depend on the processing

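No paired analysis was possible because the samples of a stage share 1 matrix and its barcodes carry no sample name. Leaving out each replicate was not run for the same reason. Of the values recomputed under planned settings 41 stayed within the counting interval or the 1.5-fold limit for counts and 56 moved, and of those under added settings 12 and 18, and the causes were not tested. Values run in the order E11.5, E14.5, E16.5.

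With at least 200 genes and no mitochondrial limit there were 205, 530 and 334 globin-rich cells, the embryonic beta-type share was 93.4%, 31.2% and 0.957%, the Hba-x share of alpha-type UMIs 60.2%, 7.15% and 0.516%, the alpha-type share 42.3%, 42.4% and 38.1%, and the level in the other cells 2352 and 2171 CPM at the first 2 stages. Of 25 erythroid genes compared at this setting, 2 were higher and 5 lower at E16.5 than at E14.5. With a minimum of 1000 genes and 10% mitochondrial UMIs at most, E11.5 had 55 such cells, E14.5 had an embryonic share of 22.8% and an Hba-x share of 5.35%, the alpha-type share was 43.3%, 39.6% and 36.5% and the level 1660, 2042 and 1063. With a globin limit of 10% the level was 1596, 1127 and 549.7, and E14.5 had an alpha-type share of 39.9% and an embryonic share of 23.4%. With a limit of 50% there were 26, 42 and 16 cells, the level was 5407, 7747 and 4767, the alpha-type share 43.7%, 40.8% and 37.3%, the embryonic share 93.9% at E11.5 and 0 at E16.5, and the Hba-x share 60.02% at E11.5. As a mean of cells the embryonic share was 94.6% and 26.3% at the first 2 stages, the alpha-type share 41.8% and 39.9%, and the Hba-x share at E14.5 4.94%. With cells thinned to 2000 UMIs the level was 2078, 1861 and 809, the alpha-type share 42.5% and 39.98% at the first 2 stages, and E14.5 had an embryonic share of 22.9% and an Hba-x share of 5.63%. With no minimum count 57 erythroid genes were compared instead of 15, of which 2 were higher and 11 lower at E16.5 than at E14.5. The share over all genes is not given for this setting or for that of 200 genes, so these counts are no finding.

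The other settings were added after the data were seen. Without cells with markers of another type, E14.5 (12 cells) had an embryonic share of 49.2%, an Hba-x share of 13.9% and an alpha-type share of 45.04%. E16.5 (5 cells) had an embryonic share of 0 and an alpha-type share of 39.1%, and 2 of 29 erythroid genes were higher at E14.5 than at E11.5. In globin-rich barcodes with under 700 genes the embryonic share was 82.5%, 18.4% and 0.985%, the Hba-x share 54.2%, 4.47% and 0.567%, and the alpha-type share 38.8% at E11.5 and 38.2% at E16.5. There 10 of 28 erythroid genes were higher and 12 lower at E14.5 than at E11.5, and 5 of 21 were higher at E16.5 than at E14.5. With E14.5 cells of under 50% embryonic beta-type UMIs alone, 1 of 15 erythroid genes was lower at E16.5. The shares over all genes for these added settings stand beside the counts in the Results. The embryonic share fell from stage to stage under each setting, whereas the order of E11.5 and E14.5 in the alpha-type share and in the level of the other cells turned under 3 settings each.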
